A study of Mus musculus with 9 samples.

Results

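Liver and endoderm genes were followed across the otic and non-otic tissues of the midgestation embryo. Of the 8 genes *Afp*, *Ttr*, *Apoa1*, *Apoa2*, *Apob*, *Hnf4a*, *Trf* and *Arg1*, 7 are listed by symbol on the array, each with 1 probe, among 18120 symbols and 25697 probes in all. *Apob* is not listed and was skipped, so every value below comes from the other 7 probes. All 9 RNA samples came from CD-1 mouse embryos at E10.5 with no treatment or mutation named, and each of the 3 groups had 3 pools of tissue dissected from several embryos. The groups were microdissected otic vesicles (OV), the periotic tissue around them with its mesenchyme and hindbrain, and the whole embryo minus the greater otic region (embryo-minus-otic). The embryo-minus-otic group holds the liver bud and the gut tube beside heart, limbs and trunk, so its signal is that of a mixture. In such bulk RNA, fewer cells of a type and less RNA per cell cannot be told apart.

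At this stage hepatoblasts bud from the ventral foregut endoderm into the septum transversum and begin to make plasma proteins. *Afp* encodes alpha-fetoprotein, the main serum protein of the fetus. *Ttr* and *Trf* encode transthyretin and transferrin, which carry thyroid hormone with retinol-binding protein, and iron. *Apoa1* and *Apoa2* encode the principal proteins of high density lipoprotein. *Hnf4a* is a nuclear receptor that drives many hepatocyte genes, and *Arg1* encodes the liver arginase that ends the urea cycle. Endoderm of the visceral yolk sac makes several of the same plasma proteins, the choroid plexus makes transthyretin, and some macrophages make arginase 1.

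*Afp* and *Apoa2* are shown by the sequence before their annotated starts, since both were higher in embryo-minus-otic tissue than in either other group and both had an entry in the RefSeq promoter table (assembly GRCm38.p6). The letters are the 250 bases before the start, on the plus strand, and capitals mark matches to the motifs searched.
Afp, chr5:90490464-90490713: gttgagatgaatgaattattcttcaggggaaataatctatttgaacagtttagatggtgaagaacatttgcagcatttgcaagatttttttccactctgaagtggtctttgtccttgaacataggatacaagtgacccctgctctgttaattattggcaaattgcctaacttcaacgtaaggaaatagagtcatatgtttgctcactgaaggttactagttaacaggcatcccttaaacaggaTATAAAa
Apoa2, chr1:171224804-171225053: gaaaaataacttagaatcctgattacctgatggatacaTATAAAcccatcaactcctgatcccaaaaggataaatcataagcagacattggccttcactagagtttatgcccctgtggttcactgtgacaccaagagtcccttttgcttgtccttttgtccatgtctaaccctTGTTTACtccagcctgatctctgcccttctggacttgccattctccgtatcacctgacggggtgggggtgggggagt
In the *Afp* window the capitals are the TATA box letters TATAAA, from 7 to 2 bases before the start. In the *Apoa2* window they are TATAAA from 212 to 207 bases before the start and the FOXA motif TGTTTAC from 77 to 71 bases before it. Among all 32851 windows of 300 bases in the table, searched on both strands, TGTTTAC was found in 3.65% and TATAAA in 13.6%. The table has 7 windows for *Afp*, *Apoa1*, *Apoa2*, *Apob* and *Hnf4a*. None of these motifs, nor the FOXA motif TATTTAC, the HNF4 motifs CAAAGTCCA and CAAAGGTCA, or the C/EBP motifs TTGCGCAA and TTGCAAAA, was found in 4 of the 7 windows, those of *Apoa1*, both of *Hnf4a* and that of the upstream start of *Apoa2*. Such a match is a run of letters and was not measured as a binding site.

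Values are the authors' average bead signals per probe, log2 transformed and quantile normalized here. They compare 1 probe between arrays, not different probes. Above background means a detection p-value under 0.01 on that array, which between 11283 and 12160 probes per array met. The tissue labels held for OV, where *Oc90*, *Pax2*, *Dlx5* and *Gata3* were above background on all arrays and all 4 were higher than in each non-otic group, and for periotic tissue, where the hindbrain genes *Hoxa2*, *Hoxb2* and *Egr2* exceeded both other groups, while the mesenchyme gene *Twist1* was higher in embryo-minus-otic tissue (9.13) than in periotic tissue (8.25). Of these 4 periotic genes, 3 were higher in periotic tissue than in OV at an adjusted p under 0.05 (limma), and 1 was not called. In embryo-minus-otic tissue *Myl7* (heart) and *Hoxc9* (trunk) had mean log2 intensities of 9.59 and 9.43. *Hand1* and *Tbx5* were not above background on any array of the series. OV replicate 1 had 6.59 for *Myl7* and 6.23 for *Hoxc9* and was the only OV array above background for them. Over the 147 other probes called at least 2-fold higher in embryo-minus-otic tissue than in periotic tissue, OV replicate 1 was the highest OV array for 73, with a median 0.056 log2 units above the OV mean. OV replicates 2 and 3 were the highest for 32 and 42 of them. The same count over all probes was not made. Results that rest on OV replicate 1 are given below without it as well.

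In embryo-minus-otic tissue 5 of the 7 probes, those for *Afp*, *Apoa2*, *Ttr*, *Trf* and *Arg1*, were above background on all arrays. In periotic tissue 1 probe was, that for *Trf*, and in OV 0 were. Against OV, 5 of the 7 were higher in embryo-minus-otic tissue at *q* under 0.05 and 2, *Apoa1* and *Hnf4a*, were not called, where *q* stands for the p-value of limma after Benjamini-Hochberg adjustment over all probes. Over the array 5.51% of probes were called in that direction. Against periotic tissue 4 of the 7 were higher in embryo-minus-otic tissue, where 2.95% of all probes were. Between OV and periotic tissue 1 of the 7 was called, *Trf*, which was higher in periotic tissue, as were 5.15% of all probes. Every one of the 7 differences was positive in both embryo-minus-otic comparisons, as were 48.7% of all probes against OV and 48% against periotic tissue. The median difference of the 7 was 1.62 log2 units for embryo-minus-otic minus OV and 1.23 for embryo-minus-otic minus periotic, against -0.0043 and -0.0066 over all probes. All embryo-minus-otic arrays lay above all OV arrays for 5 of the 7 probes, as for 11.8% of all probes, and above all periotic arrays for 6 of the 7, as for 9.19% of all probes. Periotic and OV arrays did not overlap for *Trf*, higher in periotic tissue, and for *Apoa1*, higher in OV, orders found for 12.8% and 12.3% of all probes. These comparisons share arrays, each group entering 2 of the 3.

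**Figure D1:**
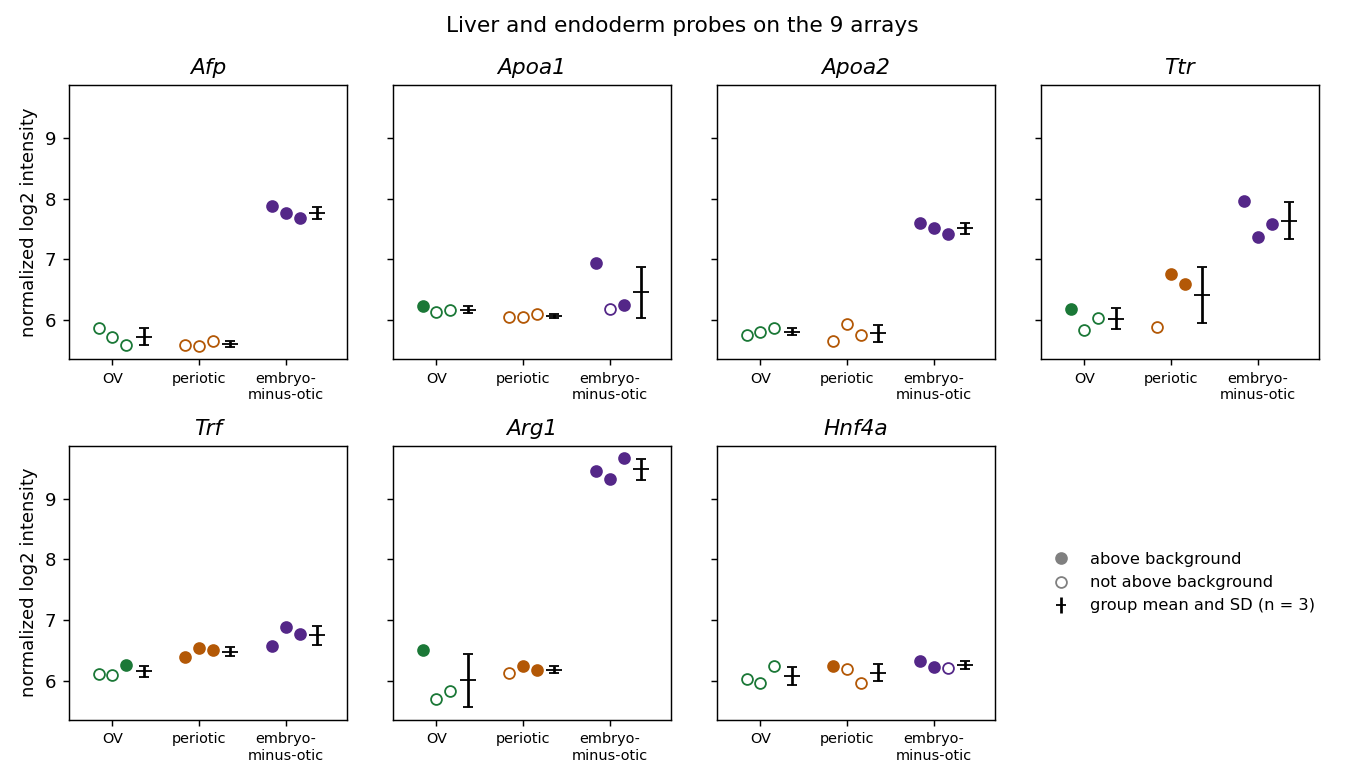
Normalized log2 intensity (y axis, same scale in all panels) of the 7 probes on each array, by tissue group (x axis, replicates 1 to 3 from left to right); filled points are above background, open points are not, and the black bar is the group mean with its SD (n = 3). *Afp*, *Apoa2*, *Ttr* and *Arg1* stood clear of both other groups in the embryo-minus-otic arrays, whereas the *Hnf4a* points of the 3 groups overlapped.

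*Afp*, on chromosome 5 by the array's annotation, had log2 intensities of 7.88, 7.76 and 7.68 on embryo-minus-otic replicates 1 to 3. It had 5.86, 5.72 and 5.58 on the OV arrays and 5.59, 5.57 and 5.65 on the periotic arrays. None of those 6 arrays was above background for *Afp*, and none came near the embryo-minus-otic arrays. The group means were 7.77 ± 0.10 (SD, n = 3 arrays) in embryo-minus-otic tissue, 5.72 ± 0.14 in OV and 5.60 ± 0.044 in periotic tissue. Since both dim groups give only a bound, the fold Δ of embryo-minus-otic was at least 2.97 against OV (*q* = 8.49e-10, limma) and at least 3.00 against periotic tissue (*q* = 9.92e-10). Each bound compares the bright group's mean with a mean over the dim arrays in which every array counts at its own value or at its lowest value above background, whichever is higher. The measured means differed by 2.05 and 2.17 log2 units. A *q* printed beside a bound, here and below, is that of the measured difference and does not test the bound. Periotic minus OV was -0.12 (95% interval -0.32 to 0.082, *q* = 0.606), below the level at which either group was detected.

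*Apoa2*, on chromosome 1, followed the same arrangement. Its log2 intensities were 7.60, 7.52 and 7.42 on the embryo-minus-otic arrays, 5.75, 5.80 and 5.87 on the OV arrays and 5.65, 5.93 and 5.75 on the periotic arrays. It was above background on all embryo-minus-otic arrays and on no other array. The fold Δ of embryo-minus-otic was at least 2.48 against OV (measured means 7.51 and 5.81, *q* = 4.67e-09, limma) and at least 2.51 against periotic tissue (measured mean 5.78, *q* = 7.37e-09). Periotic minus OV was -0.030 log2 units (95% interval -0.23 to 0.17).

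The partner apolipoprotein probe, that for *Apoa1* on chromosome 9, was uneven within embryo-minus-otic tissue. It had a log2 intensity of 6.94 on replicate 1, and 6.18 and 6.25 on replicates 2 and 3. The OV arrays had 6.23, 6.12 and 6.16 and the periotic arrays 6.05, 6.05 and 6.10. Replicate 1 of embryo-minus-otic tissue therefore stood alone, and the remaining pair lay among or close to the OV arrays. The mean of 6.46 ± 0.42 (SD, n = 3 arrays) exceeded OV by 0.29 log2 units (95% interval -0.030 to 0.60, *q* = 0.298, limma) and exceeded periotic tissue by 0.39 (0.074 to 0.71, *q* = 0.177). Without embryo-minus-otic replicate 1 these differences were 0.048 and 0.16. The *Apoa1* probe was above background on 2 embryo-minus-otic arrays, 1 OV array (replicate 1) and no periotic array. Without OV replicate 1 embryo-minus-otic minus OV was 0.31 log2 units. Periotic minus OV was then -0.0765 in place of -0.10.

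*Ttr*, on chromosome 18, had log2 intensities of 7.97, 7.37 and 7.58 on the embryo-minus-otic arrays and 6.19, 5.83 and 6.04 on the OV arrays. On the periotic arrays it had 5.89, 6.75 and 6.59. Periotic replicates 2 and 3 were above background and higher than every OV array, while periotic replicate 1 was not above background and lay within the OV range. Embryo-minus-otic tissue was 3.07-fold above OV (log2 1.62, standard error 0.19, *q* = 1.89e-05, limma) and 2.34-fold above periotic tissue (log2 1.23, *q* = 6.38e-04), with no overlap in either comparison. These folds use the measured means, although *Ttr* was above background on only 1 OV array, replicate 1, without which embryo-minus-otic minus OV was 1.69. Periotic minus OV was 0.39 log2 units (95% interval -0.013 to 0.80, *q* = 0.283), and without periotic replicate 1 it was 0.65 (*q* = 0.0174).

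*Trf*, whose chromosome the array's annotation does not give, showed the smallest of the called differences. It had log2 intensities of 6.58, 6.89 and 6.78 on the embryo-minus-otic arrays, 6.40, 6.54 and 6.50 on the periotic arrays and 6.11, 6.10 and 6.26 on the OV arrays. No array of a group overlapped with another group, in the order embryo-minus-otic, periotic, OV. *Trf* was above background on only 1 OV array, replicate 3, so its folds against OV are those of the measured means. Embryo-minus-otic tissue was 1.51-fold above OV (log2 0.59, standard error 0.097, *q* = 5.29e-04, limma). Periotic tissue was 1.25-fold above OV (log2 0.32, *q* = 0.0465), a call that held in 7 of 16 alternatives and was lost, among others, in the fits without OV replicate 1 (0.30, *q* = 0.147), OV replicate 2 (0.29, *q* = 0.163), periotic replicate 1 (0.37, *q* = 0.0623), periotic replicate 2 (0.29, *q* = 0.163), periotic replicate 3 (0.31, *q* = 0.126) and embryo-minus-otic replicate 3 (0.33, *q* = 0.0588). Embryo-minus-otic and periotic tissue, its neighbours in that order, differed by 0.27 (95% interval 0.062 to 0.48, *q* = 0.147).

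*Arg1*, on chromosome 10, had the largest difference of the 7. Its log2 intensities were 9.46, 9.32 and 9.67 on the embryo-minus-otic arrays, 6.13, 6.25 and 6.17 on the periotic arrays and 6.51, 5.70 and 5.82 on the OV arrays. The embryo-minus-otic arrays lay far above all others, and OV replicate 1, the only OV array above background for *Arg1*, stood above the other OV arrays. The fold Δ of embryo-minus-otic was 11.1 against OV (log2 3.47, standard error 0.16, *q* = 1.00e-09, limma) and 9.87 against periotic tissue (log2 3.30, *q* = 2.54e-09). These folds use the measured means, although *Arg1* was above background on 1 OV array and 2 periotic arrays. Without OV replicate 1 the first difference was 3.71, and periotic minus OV changed from 0.17 (95% interval -0.17 to 0.52, *q* = 0.684) to 0.42 (*q* = 0.0303).

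*Hnf4a*, on chromosome 2, was the only transcription factor among the 7 and lay close to background in every group. The log2 intensities were 6.33, 6.22 and 6.21 on the embryo-minus-otic arrays, 6.24, 6.19 and 5.97 on the periotic arrays and 6.03, 5.96 and 6.24 on the OV arrays. All groups overlapped. It was above background on 2 embryo-minus-otic arrays, 1 periotic array and no OV array. Embryo-minus-otic minus OV was 0.18 log2 units (95% interval -0.037 to 0.39, *q* = 0.356, limma) and embryo-minus-otic minus periotic was 0.12 (-0.094 to 0.34, *q* = 0.6585).

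**Figure D2:**
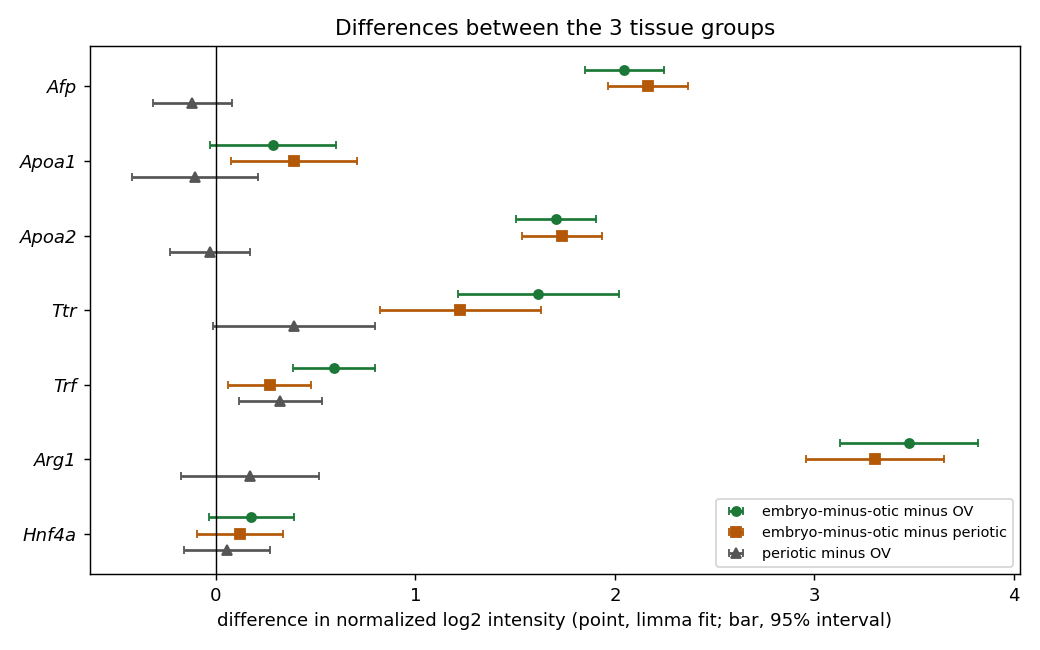
Difference in normalized log2 intensity (x axis) between each pair of groups for the 7 genes (y axis), as the limma estimate with its 95% interval. The intervals for *Afp*, *Apoa2*, *Ttr* and *Arg1* lie above 0.81 in both embryo-minus-otic comparisons, and those of periotic minus OV (gray triangles) cross 0 for every gene but *Trf*.

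Within embryo-minus-otic tissue the 7 probes did not rank the arrays alike. Replicate 1 was the highest array for *Afp*, *Apoa1*, *Apoa2*, *Ttr* and *Hnf4a*, by 0.11, 0.48, 0.084, 0.33 and 0.073 log2 units over the group mean. For *Trf* replicate 1 was the lowest array, at -0.17 from the group mean, and for *Arg1* replicate 3 was the highest, at 0.19. These deviations are a description of 3 arrays.

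The profile of *Afp* was set beside those of all other genes. *Afp* was not above background on the 6 OV and periotic arrays, so likeness to it reflects mainly the height of a probe over its own low values on the embryo-minus-otic arrays. Over the 9 arrays, each profile centred on its own mean, the smallest root mean square differences among 11848 other probes above background on all arrays of a group were for *Asb2* (0.092 log2 units), *Des* (0.12), *Popdc2* (0.12), *Hoxd9* (0.14) and *Actn2* (0.14). *Des* encodes the muscle filament protein desmin, *Actn2* a sarcomeric actinin, and *Hoxd9* patterns the posterior trunk and limb. Their mean log2 intensity in embryo-minus-otic tissue exceeded OV by between 2.13 and 2.22. Among the 7 genes, *Apoa2* came next to *Afp* at 0.22 (place 20), followed by *Ttr* at 0.46 (place 65), *Arg1* at 0.65 and *Trf* at 0.83, while the *Apoa1* and *Hnf4a* probes did not enter the ranking.

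**Figure D3:**
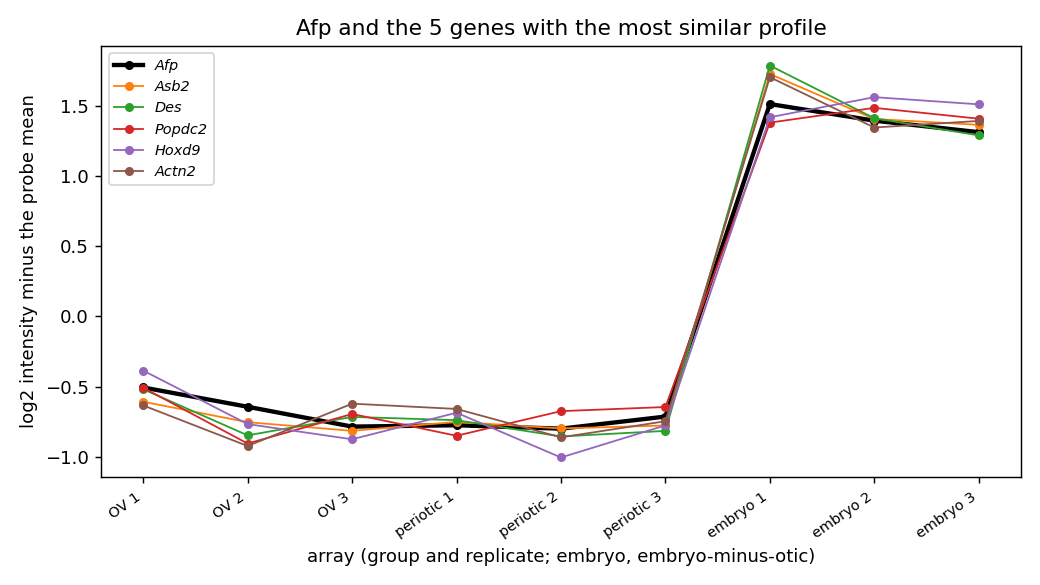
Normalized log2 intensity minus the probe's mean over the 9 arrays (y axis) on each array (x axis) for *Afp* (black) and the 5 genes with the most similar profile. All 6 lines are low on the OV and periotic arrays and high on the embryo-minus-otic arrays.

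A wider list of liver secreted and lipid transport genes was mostly not above background. Of its 31 genes 30 were measured, and on the embryo-minus-otic arrays 19 of them were not above background on any array, among them *Alb* (listed as Alb1), which encodes albumin, *Ahsg*, *Fga*, *Fgb*, *Apoc3* and *Apoa4*. The *Alb1* mean log2 intensity was 5.71 in embryo-minus-otic tissue, 5.79 in OV and 5.79 in periotic tissue (*q* = 0.760 against OV, limma). Against OV 7 of the 30 were higher in embryo-minus-otic tissue and 0 lower (0 also at an unadjusted p under 0.05, limma), with a list median of 0.065 log2 units against -0.0043 over all probes. Without OV replicate 1, 5 were higher. Against periotic tissue 5 were higher and 1 lower, with a median of 0.029. Over all probes 5.51% were called higher in embryo-minus-otic tissue than in OV and 2.95% higher than in periotic tissue.

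The called genes of this list included carriers and protease inhibitors of plasma. *Ambp*, which encodes alpha-1-microglobulin and bikunin, had a mean log2 intensity of 7.78 ± 0.20 (SD, n = 3 arrays) in embryo-minus-otic tissue and was at least 2.99-fold above OV (mean 5.81, *q* = 3.30e-09, limma) and at least 3.03-fold above periotic tissue (mean 5.74). *Itih2*, an inter-alpha-inhibitor heavy chain that binds bikunin, had 6.93 ± 0.155 and was at least 1.66-fold above OV (mean 5.70, *q* = 3.22e-07). *Serpina1b*, an alpha-1-antitrypsin gene, had 6.75 ± 0.35 and was at least 1.47-fold above OV (mean 5.73, *q* = 1.08e-04), but its near-identical paralogs can share a probe. *Vtn*, which encodes vitronectin, was arranged otherwise, with a mean of 8.39 in periotic tissue, 7.36 in embryo-minus-otic tissue and 5.93 in OV. It was at least 4.55-fold higher in periotic tissue than in OV (*q* = 1.43e-10, limma) and 2.05-fold higher in periotic tissue than in embryo-minus-otic tissue (*q* = 7.22e-06).

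Of 19 measured transcription factors of liver and endoderm, 9 were higher in embryo-minus-otic tissue than in OV and 0 lower (1 at an unadjusted p under 0.05, limma; 8 higher without OV replicate 1), with a list median of 0.11 log2 units. These counts take the brightest probe of each gene, and 5.51% of all probes were called higher in embryo-minus-otic tissue than in OV. A second, dimmer probe of *Prox1*, above background on 1 OV array and no other, was lower in embryo-minus-otic tissue than in OV (5.84 against 6.21, *q* = 0.0321, limma). *Gata6*, which acts in endoderm and heart, was 8.35-fold higher than in OV (9.11 ± 0.13 against 6.05 ± 0.255, SD, n = 3 arrays, *q* = 1.78e-10, limma) and at least 7.60-fold higher than in periotic tissue. It was above background on 1 OV array and no periotic array, so the fold against OV is that of the measured means. *Nkx2-1* (listed as Titf1), a factor of thyroid, lung and ventral forebrain, was at least 2.55-fold above OV (mean 7.55 against 5.97, *q* = 3.14e-09), and *Cdx2*, a factor of the hindgut and tail end, at least 2.11-fold (7.28 against 5.82, *q* = 5.33e-07). *Foxa1* was at least 1.85-fold above OV in embryo-minus-otic tissue and at least 1.69-fold above OV in periotic tissue. Between embryo-minus-otic and periotic tissue 4 factors were higher in embryo-minus-otic tissue, as were 2.95% of all probes, and 2 were lower. The lower ones were *Prox1* and *Onecut2*, the latter with means of 8.90 in periotic tissue, 7.73 in embryo-minus-otic tissue and 6.49 in OV (*q* = 5.35e-05 between the non-otic groups). *Hnf4g*, *Cebpa*, *Gata4*, *Onecut1*, *Nr1h4*, *Nr0b2* and *Foxa2* were not above background on any embryo-minus-otic array, although *Foxa2* was among the 9 called against OV (mean 6.09 against 5.72). That *Foxa2* probe was not above background on any OV array either. A dimmer *Foxa2* probe was not called and ran the other way (5.74 against 5.815, *q* = 0.749, limma). In OV against periotic tissue 4 factors were higher in periotic tissue, as were 5.15% of all probes, and 3 without OV replicate 1.

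The other urea cycle genes were set beside *Arg1*. Of the 7 measured, 0 were called higher in embryo-minus-otic tissue than in OV or periotic tissue by limma, and 0 at an unadjusted p under 0.05, by the brightest probe of each gene. Since 5.51% and 2.95% of all probes were called higher in these comparisons, 0 of 7 is little below the array's share. A dimmer probe of *Slc25a15*, the mitochondrial ornithine carrier, was higher in embryo-minus-otic tissue than in OV (6.53 against 6.25, *q* = 0.0317, limma). The list medians were -0.050 and 0.035 log2 units, and *Cps1* and *Otc*, the mitochondrial steps of the cycle in liver, were not above background on any array. *Arg2*, the mitochondrial arginase, ran in the opposite direction to *Arg1*. Its log2 intensity averaged 7.33 on the OV arrays (SD 0.30, n = 3), 5.80 in embryo-minus-otic tissue and 5.75 in periotic tissue, so that OV exceeded embryo-minus-otic tissue at least 2.17-fold (*q* = 5.65e-07, limma) and exceeded periotic tissue at least 2.23-fold (*q* = 3.54e-07).

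**Figure D4:**
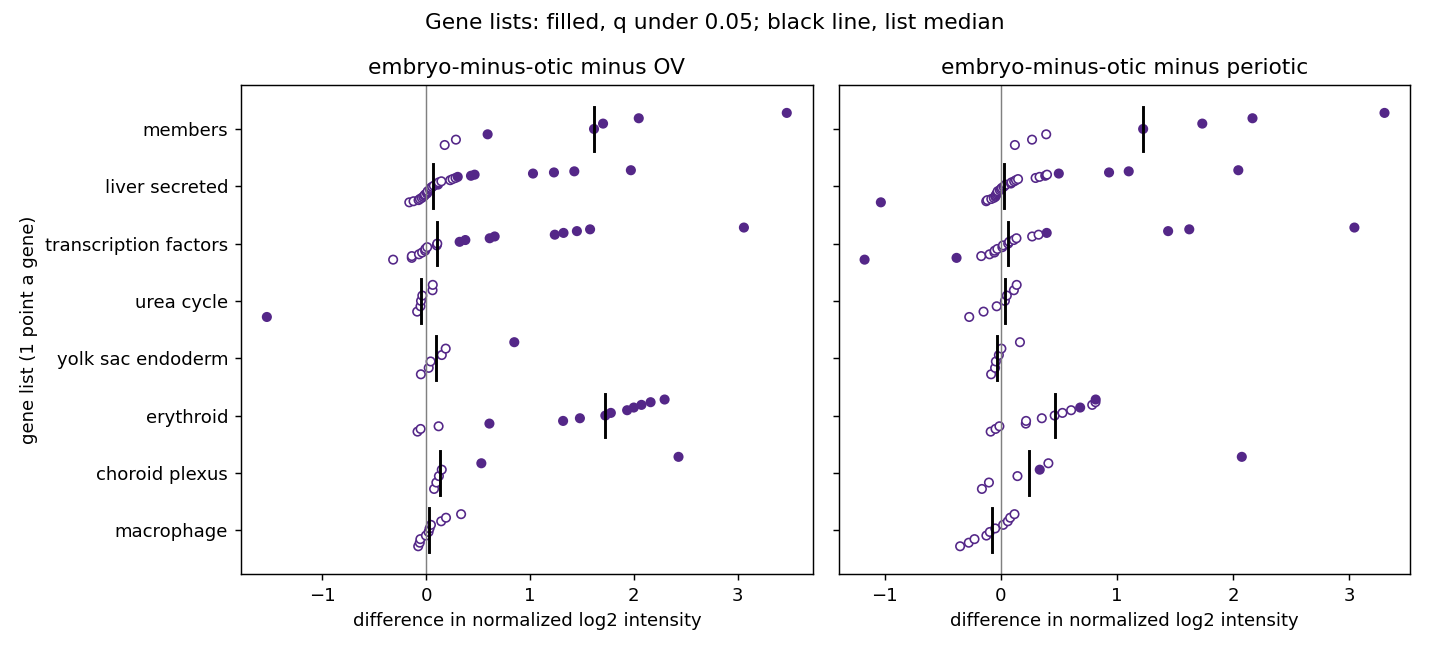
Difference in normalized log2 intensity (x axis) for the 7 genes studied and the brightest probe of each gene in 7 lists (y axis), embryo-minus-otic minus OV on the left and minus periotic on the right; filled points have *q* under 0.05 and black lines are list medians. On the left 7 of 30 liver secreted genes and 9 of 19 transcription factors are filled and lie to the right of 0, and 10 of 13 erythroid genes are filled on the left against 2 on the right.

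Markers of other cell types that could carry these transcripts were set beside the results. Over all probes 5.51% were called higher in embryo-minus-otic tissue than in OV and 2.95% higher than in periotic tissue. In periotic tissue 5.15% were called higher than in OV. Of 13 erythroid genes 10 were higher in embryo-minus-otic tissue than in OV and 10 were higher in periotic tissue than in OV, by limma at *q* under 0.05, and 2 were higher in embryo-minus-otic tissue than in periotic tissue. Against OV, *Slc4a1*, the red cell anion exchanger, was 4.48-fold higher in embryo-minus-otic tissue (mean log2 intensity 11.2 against 9.04) and the globin gene *Hba-a1* 4.21-fold (13.9 against 11.9). The summed intensity of the list ranged from 14300 to 33070 on the OV arrays, with replicate 1 the highest. It ranged from 50970 to 60480 on the periotic arrays and from 68180 to 74690 on the embryo-minus-otic arrays. Such a sum leans to the brightest probes of a list. The means of *Trf*, *Ttr*, *Arg1* and *Hnf4a* had the same order of groups, and those of *Afp*, *Apoa1* and *Apoa2* did not. Between OV and periotic tissue only *Trf* of these was called (*q* = 0.0465, limma), a call that held in 7 of 16 alternatives. For the others the order of OV and periotic tissue was not called. For *Apoa2* and *Hnf4a* it reversed in at least 1 fit that left out an array. The part of blood in any of these differences was not tested. Of 6 measured yolk sac endoderm genes, *Dab2* was higher in both non-otic groups than in OV (means 9.71 and 9.71 against 8.86), and *Amn*, *Lrp2*, *S100g* and *Soat2* were not above background on any embryo-minus-otic array. Summed intensities of this list were 1148 to 1200 in embryo-minus-otic tissue, 1032 to 1268 in periotic tissue and 751 to 836 in OV. Most of the embryo-minus-otic sum was *Dab2*. For *Ttr*, 2 of 6 measured choroid plexus genes were higher in embryo-minus-otic tissue than in each other group, *Otx2*, which also marks forebrain and midbrain (9.34 against 6.91 in OV and 7.26 in periotic tissue), and *Aqp1*, while *Kcne2* and *Kl* were not above background on any array. That list summed to 1093 to 1228 in embryo-minus-otic tissue, 538 to 617 in periotic tissue and 500.5 to 630 in OV. Most of the embryo-minus-otic sum was *Otx2*, so the sums do not describe the list as a whole. For *Arg1*, 0 of 10 measured macrophage genes were called higher in embryo-minus-otic tissue by limma. At an unadjusted p under 0.05 (limma), 1 was higher against OV and 0 against periotic tissue, while 3 were lower against periotic tissue. Since 5.51% and 2.95% of all probes were called higher, 0 of 10 is little below the array's share. *Emr1*, *Cd68*, *Ptprc*, *Cx3cr1*, *C1qa*, *C1qb* and *Fcgr1* were not above background on any embryo-minus-otic array. The macrophage list summed to 640 to 665 in embryo-minus-otic tissue, 671 to 737.5 in periotic tissue and 586 to 638 in OV, and *Mrc1* was higher in periotic tissue than in OV.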

How the data were processed

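RNA of 9 tissue pools (OV, periotic and embryo-minus-otic, 3 each) was amplified from oligo(dT), labelled with biotin and hybridized to MouseRef-8 v2.0 bead arrays, which carry 1 colour. The authors deposited average bead intensity per probe, not normalized between arrays, with detection p-values from the negative control beads; background subtraction is not given in the sources used here. The deposited intensity (floor 1) was log2 transformed, quantile normalized and fitted with limma 3.58.1 in R 4.3.3, all 3 groups in 1 model, with empirical Bayes moderation and Benjamini-Hochberg adjustment over 25697 probes; calls were made at *q* under 0.05. The script was tested on simulated data. All *Afp*, *Ttr*, *Apoa1*, *Apoa2*, *Hnf4a*, *Trf* and *Arg1* probes are reported, and from the gene lists *Alb* and, per comparison, up to 4 genes with the largest called changes; a few others were named after their values were seen. A listed gene was represented by its brightest probe. Members and lists were chosen with earlier results of these data known. Per the methods 3 litters were dissected into the pools, so groups may share litters, and p-values measure the spread between pools; the number of arrays limits precision. Alternatives were neqc background correction, median or no normalization, a filter on dim probes, detection p under 0.05, averaged probes, a trended prior, a replicate block, only the 2 groups compared, a 2-fold minimum and leaving out each array. Promoter sequences are from RefSeq (GRCm38.p6). *Apob* was not analysed here. Some listed genes and motifs are not reported here.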

Additional observations from a re-analysis of the deposited data

How the results depend on the processing

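The count of the 7 genes called higher in embryo-minus-otic tissue than in OV was 5 under all alternatives but the 2-fold minimum, which gave 4. The count against periotic tissue was 4 under every alternative run. The count called higher in periotic tissue than in OV was 1, and it was 0 with median normalization, without normalization between arrays, with an intensity trend in the prior and with a 2-fold minimum; leaving out 1 array gave 0 to 1. It was 0 without embryo-minus-otic replicate 3, OV replicate 2, periotic replicate 2 or periotic replicate 3. Without OV replicate 1 the 1 called gene was *Arg1*, and without periotic replicate 1 it was *Ttr*. The cause was not tested. Periotic minus OV changed sign for *Apoa2* (-0.11 to 0.034 log2 units over fits leaving out 1 array, positive without OV replicate 3, 0.0036, or periotic replicate 1, 0.034) and for *Hnf4a* (-0.0029 to 0.14, negative without OV replicate 2, -0.0029). Of 330 single values under alternatives, 316 stayed on their side of the threshold with the same direction. With neqc *Afp* differed from OV by 3.16 in place of 2.05 in embryo-minus-otic tissue. For *Apoa2* neqc gave 2.77 in place of 1.70 and for *Ttr* 2.58 in place of 1.62. It gave 1.09 in place of 0.59 for *Trf* and 4.62 in place of 3.47 for *Arg1*. The size of the folds thus depended on the processing.

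Arrays share replicate numbers across groups. With the replicate block the counts were 5, 1 and 4 and *Trf* in periotic minus OV had *q* = 0.0343 (limma). The deviations of same-numbered arrays correlated at 0.0080 to 0.18 over 9 pairs, and each of the 9 arrays correlated best with an array of its own number, a hint from the data. Per the methods 3 litters gave the pools, but the labels do not say that a number marks a litter.

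Probes near background set the limit: at detection p under 0.05, 7 of the 7 probes were above background on all embryo-minus-otic arrays in place of 5, and 2 in place of 0 on all OV arrays. *Apoa1* and *Hnf4a* gave no value under the filter on dim probes.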
